A study of Mus musculus with 9 samples.

Results

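The chaperones and folding enzymes of the endoplasmic reticulum were followed as 10 genes across arrays of N1E-115 cells, a mouse neuroblastoma line. The arrays were labelled as overexpressed, knockdown or wildtype for Tcof1. The genes were Hspa5, Hsp90b1, Manf, Calr, Canx, Pdia3, Pdia4, Pdia6, Sdf2l1 and Sel1l, and every probe set annotated with exactly 1 of these symbols was taken. That gave 21 of the 22626 probe sets on the array and 10 of the 12393 genes. The rule itself uses gene names and no measured value, although earlier results of these data were known when the genes were chosen. The array has 4 probe sets for Sel1l, 3 each for Calr and Canx, 2 each for Hspa5, Hsp90b1, Pdia4 and Pdia6, and 1 each for Manf, Pdia3 and Sdf2l1. Of the 21 probe sets, 19 were brighter than the median of all probe sets, the exceptions being Pdia4 1450620_at and Pdia6 1430983_at.

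Total RNA was measured on 3 arrays of cells overexpressing mouse Tcof1, 3 arrays of cells with Tcof1 knocked down and 3 arrays of wildtype cells, lettered A, B and C in each group. Tcof1 codes for the nucleolar protein treacle, which supports ribosomal RNA synthesis. The labels name neither the construct behind the overexpression nor the means of the knockdown, and they do not say if the letters are separate cultures or clones. A p-value here reflects only how these arrays vary, and that variation may be technical. Values are intensities in arbitrary units. Fold changes are on the log2(intensity + 16) scale, given ± SE of the limma fit, and an adjusted p under 0.05 over all 22626 probe sets counted as a call. Because the RNA came from whole cultures, fewer cells of a kind and less RNA per cell cannot be told apart.

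Nascent secreted and membrane proteins enter the endoplasmic reticulum unfolded and are bound by Hspa5 (BiP), the Hsp70 chaperone of that compartment. Calnexin and calreticulin hold glycoproteins, disulfide isomerases form and shuffle their disulfide bonds, and proteins that do not fold are passed to a ubiquitin ligase complex for degradation. When unfolded proteins accumulate, the unfolded protein response raises transcription of most of these genes together, in part through a promoter motif called the endoplasmic reticulum stress element.

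That element was looked up in the members' promoters before the values are described, because it is known from many promoters of this family. RefSeq promoters of assembly GRCm38.p6, each covering 250 bases before to 50 bases after the start of the gene, were matched for 9 of the 10 genes, Manf being the gene without a match. The element, CCAAT and CCACG with any 9 bases between them, searched on both strands, was found in 5 of the 9 member promoters and in 39 of 32851 promoters in all (0.119%). Since the element is known from this family, a larger share among the members was foreseeable and says nothing about these arrays. The stretches that hold it follow, on the strand of the gene. Capitals mark the CCAAT and CCACG of each full element, or their reverse complements, and further copies of these short motifs are left in lower case.
Hspa5 chr2:34772015-34772053 (+ strand): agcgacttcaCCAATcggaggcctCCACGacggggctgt
Hsp90b1 chr10:86705523-86705666 (- strand): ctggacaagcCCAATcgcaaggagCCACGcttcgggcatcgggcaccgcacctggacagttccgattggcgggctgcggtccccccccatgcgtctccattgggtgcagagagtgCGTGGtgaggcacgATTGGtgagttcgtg
Calr chr8:84847065-84847103 (- strand): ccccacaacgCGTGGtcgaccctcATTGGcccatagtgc
Canx chr11:50325790-50325828 (- strand): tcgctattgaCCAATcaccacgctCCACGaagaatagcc
Pdia6 chr12:17266481-17266519 (+ strand): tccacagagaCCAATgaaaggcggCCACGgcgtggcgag

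The element began 65 bases before the start of the gene in Hspa5, 98 in Pdia6, 145 in Canx and 162 in Calr. Hsp90b1 held it at 212 bases and again, on the opposite strand, at 107 bases before the start. No match was found in the windows of Pdia3, Pdia4, Sdf2l1 and Sel1l, which says only that these letters were not in those windows. The compact form of the element, ATTGG and CCACG with any 1 base between them, which contains both short motifs or their complements, was found in 0 of the 9 member promoters and in 12 of 32851 in all (0.0365%). CCAAT alone was in 9 of 9 member promoters, against 37.4% of all promoters, and CCACG alone in 8 of 9, against 32.8%. Both counts include the promoters that hold the full element.

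The 10 genes did not move as a block in the overexpressing cells. Manf was higher and Sel1l lower than in wildtype cells, and the chaperones Hspa5, Hsp90b1, Calr and Canx had differences of 0.19 or less in size on the log2 scale, none of them called. Among the 21 probe sets, 1 was called higher and 2 lower in overexpressed over wildtype, where 4.52% of all probe sets were called higher, 5.07% lower and 9.59% in either direction. The groups did not overlap for 2 higher and 3 lower probe sets, against 13.3% and 14.4% of all probe sets. The median log2 fold change was -0.07 over the 21 probe sets and -0.02 over all probe sets. No probe set of the 5 genes with the stress element printed above was called in this comparison, and so few sets cannot tell that from the 9.59% of all sets. Pdia6 1423648_at came closest (-0.46 ± 0.13, adjusted p = 0.0533), with groups that did not overlap and a call under 6 of 19 alternative settings.

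Tcof1 itself, given as a check of the labels, was read by 3 probe sets. Its brightest set, 1424643_at, read 274, 269 and 293 on the overexpressed arrays A, B and C, 219.8, 229 and 205 on the knockdown arrays and 168, 233 and 232 on the wildtype arrays. It was not called in overexpressed over wildtype (0.39 ± 0.17, adjusted p = 0.187), although those groups did not overlap, and gave 0.06 ± 0.17 in knockdown over wildtype (adjusted p = 0.934). Set 1423600_a_at read 386, 232 and 264 on the overexpressed, 135, 112 and 133 on the knockdown arrays and 143, 156 and 149.8 on the wildtype arrays. It was called higher in overexpressed over wildtype (0.87 ± 0.21, adjusted p = 0.0241). Its knockdown values all lay below its wildtype values, but the difference was not called (-0.22 ± 0.21, adjusted p = 0.744). Set 1423601_s_at was not called against wildtype, with 0.63 ± 0.20 in overexpressed (adjusted p = 0.0786) and -0.40 ± 0.20 in knockdown cells (adjusted p = 0.510). None of the 3 sets was thus called in knockdown over wildtype, so less Tcof1 RNA than in wildtype cells was not established here. In overexpressed over knockdown, 1423600_a_at (1.09 ± 0.21, adjusted p = 0.0116) and 1423601_s_at (1.03 ± 0.20, adjusted p = 0.0137) were called higher. Set 1424643_at was not (0.33 ± 0.17, adjusted p = 0.267), and these groups did not overlap on any of the 3 sets. Of 15 markers of neuroblastoma and sympathetic neurons, 14 were measured and 13 were above the median brightness. Markers of fibroblasts (6 measured of 6 listed), Schwann cells and glia (3 of 5), blood cells (4 of 5) and epithelium (4 of 4) had 1 each above it.

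**Figure D1:**
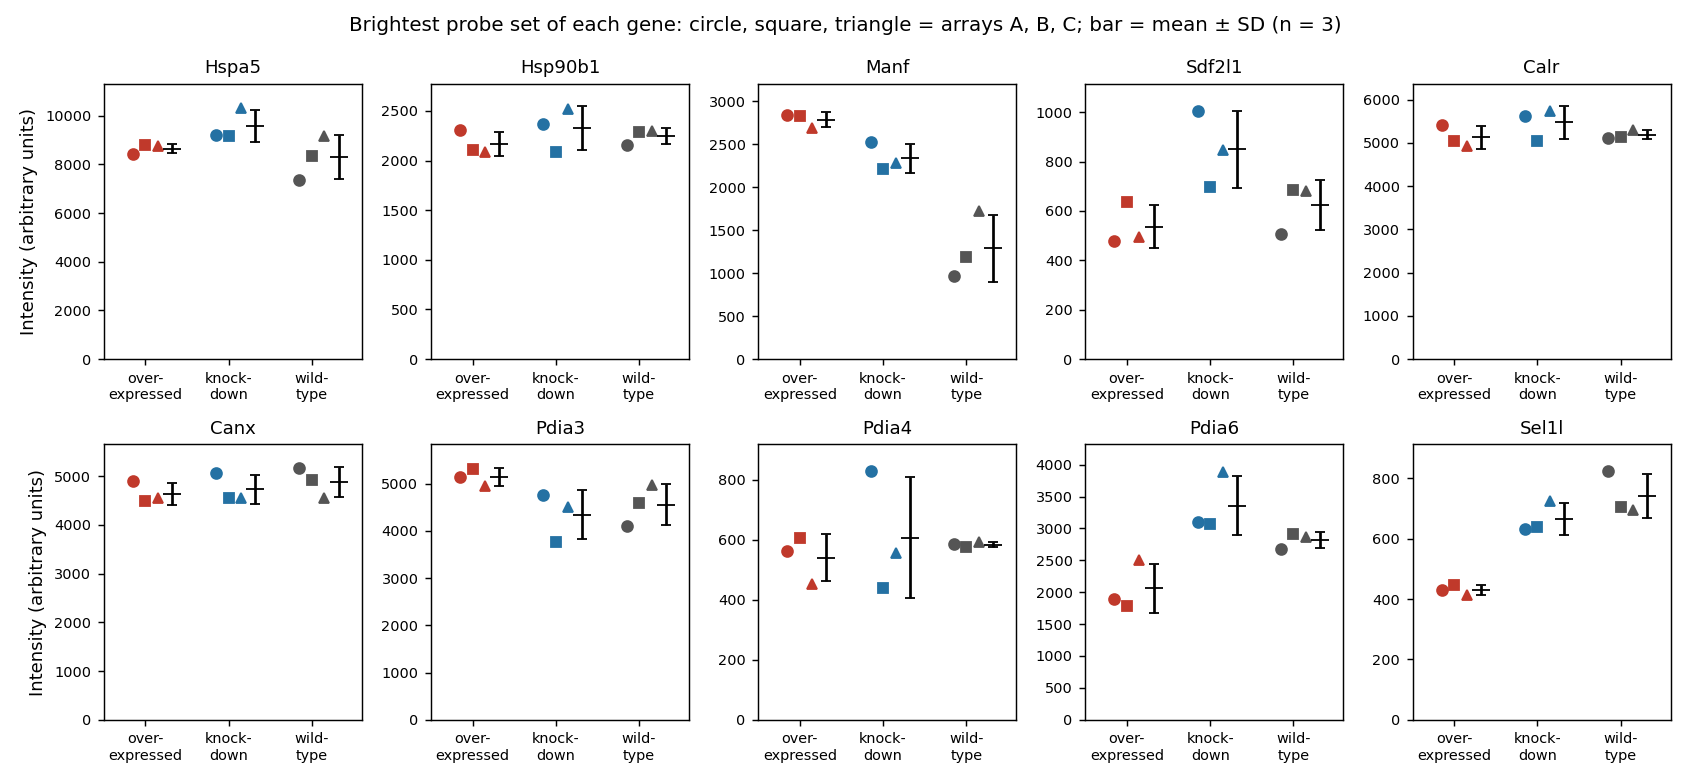
Intensity (arbitrary units, y axis) of the brightest probe set of each of the 10 genes on each overexpressed, knockdown and wildtype array, with points for arrays A, B and C and bars for the mean ± SD of 3 arrays. Manf read 2690 to 2840.4 on overexpressed and 963 to 1719 on wildtype arrays, and the 3 overexpressed values of Sel1l lie below all 6 others.

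**Figure D2:**
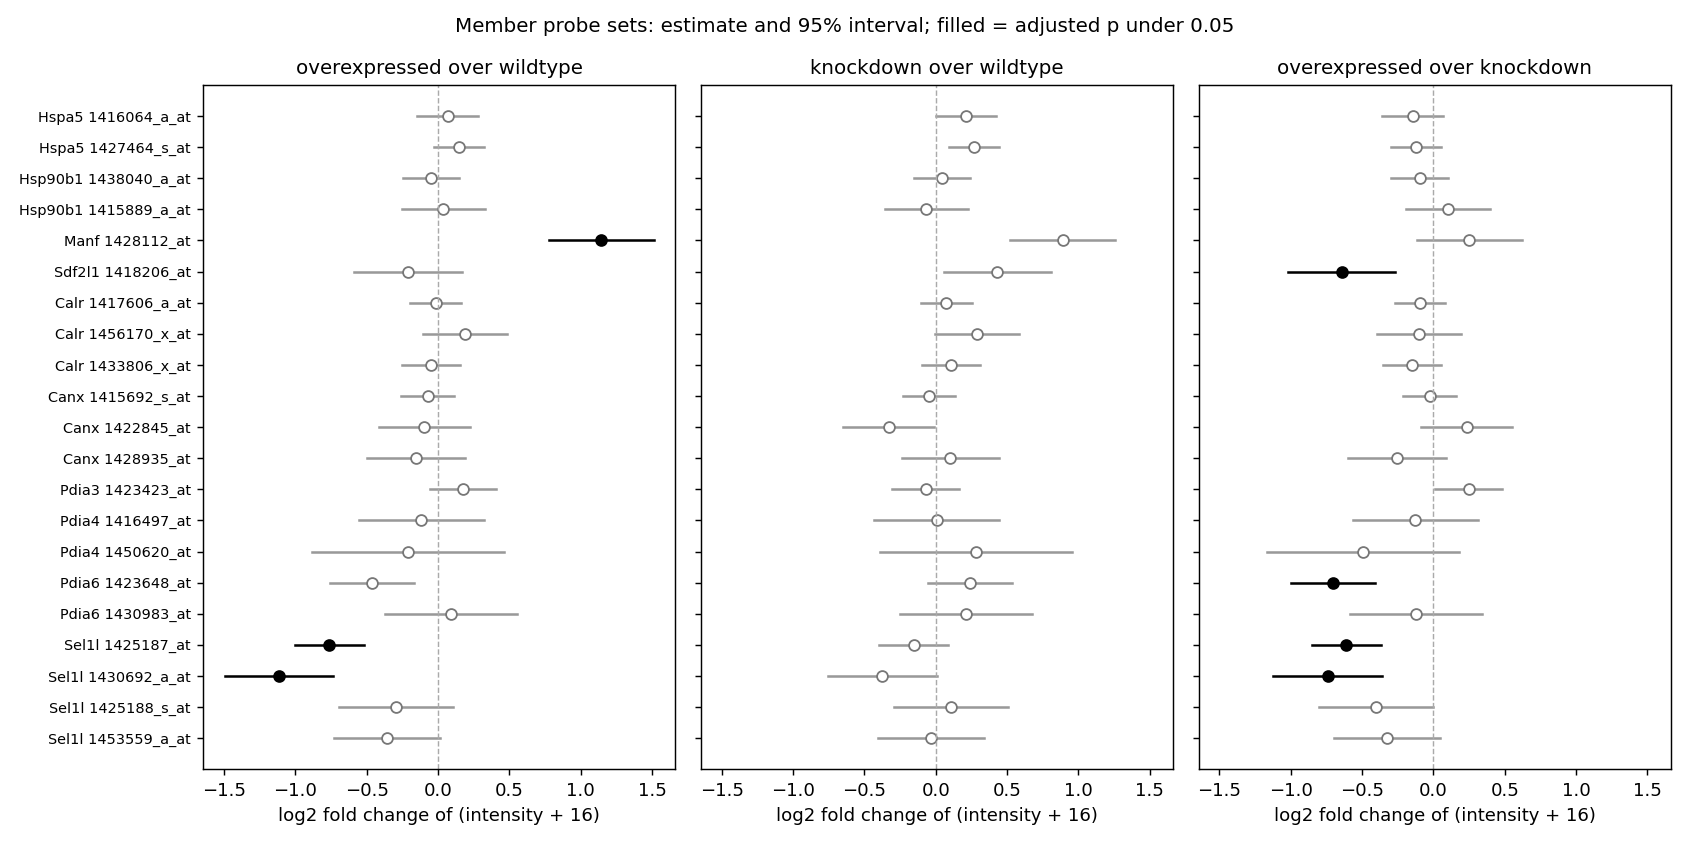
Log2 fold change of (intensity + 16) for all 21 probe sets with 1 panel for each comparison, with 95% confidence intervals of the limma fit as bars and filled points for an adjusted p under 0.05. In overexpressed over wildtype the filled points are Manf at 1.14 and the Sel1l pair at -0.76 and -1.11, and in knockdown over wildtype no point is filled.

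Manf encodes a small secreted protein of the endoplasmic reticulum that binds Hspa5 and is released under stress. Its probe set 1428112_at read 2840.4, 2823 and 2690 on the overexpressed arrays A, B and C. It read 2527, 2206 and 2279 on the knockdown arrays and 963, 1182 and 1719 on the wildtype arrays. All 3 overexpressed values and all 3 knockdown values lay above all 3 wildtype values, and the wildtype arrays differed most among themselves, with A the lowest and C the highest. Means were 2784 ± 82.3 in overexpressed, 2337 ± 168 in knockdown and 1288 ± 389 in wildtype cells (SD, n = 3 each). Manf rose in overexpressed over wildtype by a log2 fold change of 1.14 ± 0.17 (adjusted p = 0.00234), a 2.21-fold difference. The 95% confidence interval of that change was 0.77 to 1.51 on the log2 scale.

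In knockdown over wildtype the Manf difference was 0.89 ± 0.17 with an interval of 0.52 to 1.26, and it did not pass (adjusted p = 0.0995). Without wildtype array C the same difference was 1.12 with an adjusted p of 0.00721, and with probe sets limited to the brighter 60% its adjusted p was 0.0450. Without wildtype array A it was 0.70 (adjusted p = 0.205), and over all 19 alternatives the adjusted p ran from 0.00721 to 0.298. Overexpressed over knockdown gave 0.25 ± 0.17 (adjusted p = 0.418), and these groups did not overlap either. The knockdown and overexpressed comparisons share their 3 wildtype arrays.

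The genes whose pattern over the 9 arrays was most like that of Manf were sought among 6967 other genes brighter than the median, by Pearson correlation of log2 values. They were Cdk1 (r = 0.995), Cmc2 (0.990), Ppp1r14b (0.979), Ndc1 (0.979) and Ppa1 (0.978). Cdk1, the kinase that drives entry into mitosis, read 3491, 3493 and 3141 on the overexpressed arrays, 2873, 2669.7 and 2773 on the knockdown arrays and 1206, 1554 and 2012 on the wildtype arrays. As with Manf, wildtype array A was the lowest of all 9 and every overexpressed value was above every knockdown value. The 9 points share 3 groups and 9 libraries, so these correlations describe a shared pattern, and the part of any cell cycle difference in the Manf result was not tested.

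**Figure D3:**
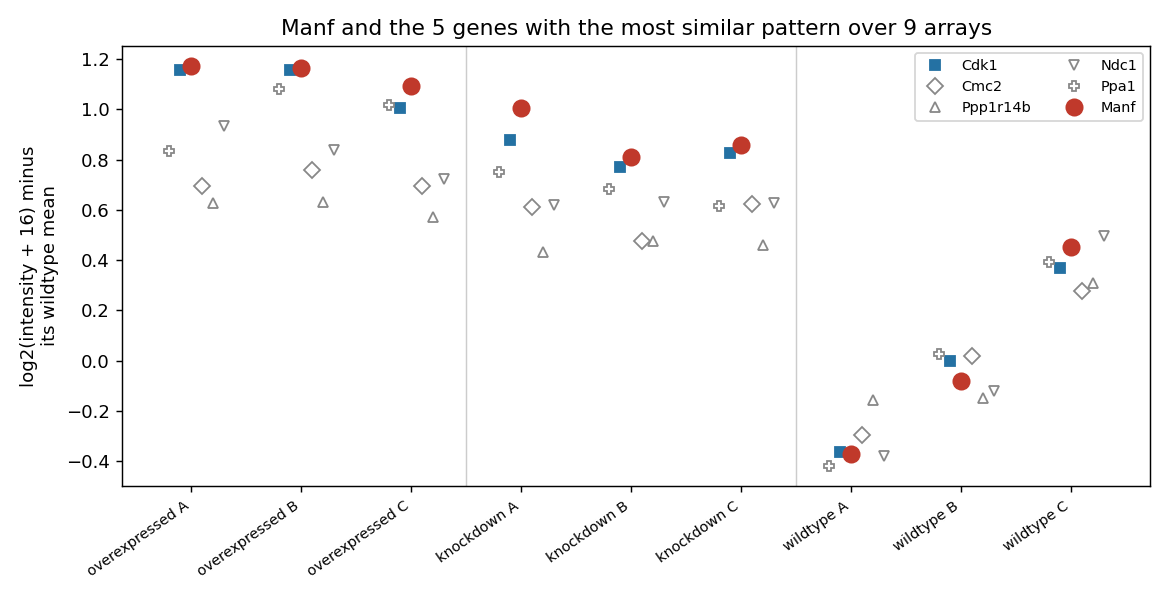
Manf and the 5 genes with the most similar pattern, as log2(intensity + 16) minus the mean of each gene's own 3 wildtype arrays (y axis), on the 9 arrays by group (x axis). In all 6 genes wildtype array A is the lowest point and wildtype array C the highest wildtype point, and the wildtype arrays lie below the overexpressed arrays.

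Sel1l encodes the membrane protein that holds the ubiquitin ligase Syvn1 in the degradation complex of the endoplasmic reticulum. Its brightest probe set, 1425187_at, read 430.2, 445 and 413 on the overexpressed arrays A, B and C. It read 631, 638 and 726 on the knockdown arrays and 824, 704 and 696 on the wildtype arrays. The overexpressed values lay below all others without overlap, while the knockdown and wildtype values overlapped. Sel1l fell on this probe set in overexpressed over wildtype by 0.76 ± 0.11 on the log2 scale (adjusted p = 0.00222). The difference in overexpressed over knockdown was -0.61 ± 0.11 (adjusted p = 0.00947), and knockdown over wildtype gave -0.15 ± 0.11 (adjusted p = 0.650).

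The set 1430692_a_at, whose ending marks a set for more than 1 transcript of a gene, read 258, 297 and 330.3 on the overexpressed arrays, 517, 383 and 635 on the knockdown arrays and 692, 624 and 649.6 on the wildtype arrays. Again the overexpressed values were the lowest 3 of 9. The change was -1.11 ± 0.17 in overexpressed over wildtype (adjusted p = 0.00311) and -0.74 ± 0.17 in overexpressed over knockdown (adjusted p = 0.0270). The second of these was lost under 7 of 19 alternative settings. Knockdown over wildtype gave -0.37 ± 0.17 (adjusted p = 0.467), with overlap at knockdown array C.

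The remaining Sel1l sets did not pass in any comparison. Set 1425188_s_at read 209 to 301 on overexpressed, 310.5 to 422 on knockdown and 286 to 367 on wildtype arrays, a difference of -0.30 ± 0.18 in overexpressed over wildtype (adjusted p = 0.388). Set 1453559_a_at read 246 to 272, 304 to 340.2 and 253 to 382 on the same groups, a difference of -0.36 ± 0.17 (adjusted p = 0.237). In knockdown over wildtype these sets gave 0.11 ± 0.18 and -0.03 ± 0.17. All 4 sets had a negative value in overexpressed over wildtype, from -1.11 to -0.30, with overlap of the groups on 1425188_s_at and 1453559_a_at. Over the mean of the 4 sets the change was -0.63 ± 0.10 (adjusted p = 0.00297). Syvn1, the ligase that Sel1l holds, was looked up after its value was known and gave -0.07 ± 0.13 (adjusted p = 0.830).

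**Figure D4:**
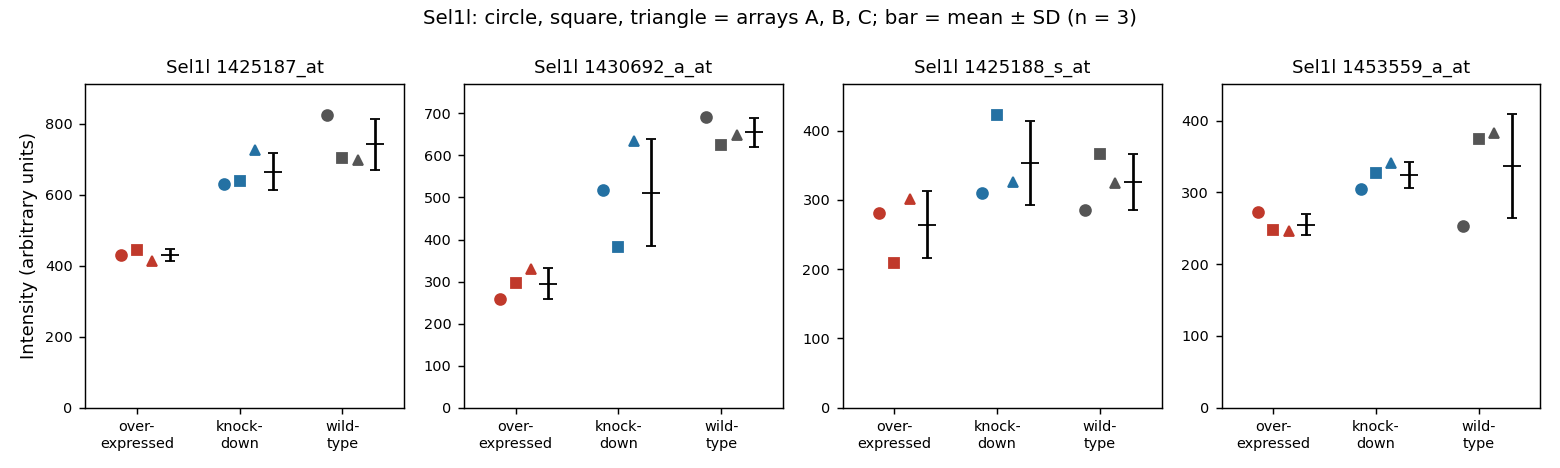
Intensity (arbitrary units, y axis) of the 4 Sel1l probe sets on the overexpressed, knockdown and wildtype arrays, with circles, squares and triangles for arrays A, B and C and bars for the mean ± SD of 3 arrays. On 1425187_at and 1430692_a_at the overexpressed points lie below all others, and on 1425188_s_at and 1453559_a_at they overlap with the wildtype points.

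Other measured features of the cultures moved alongside these calls. The summed intensity of the 14 neuroblastoma and sympathetic neuron markers was 42690 to 47454 on overexpressed, 51623 to 55313 on knockdown and 50090 to 54199 on wildtype arrays. Of these markers 6 were lower and 2 higher in overexpressed than in wildtype cells without overlap, against 14.4% and 13.3% of all probe sets. The sum, to which bright sets such as Chgb add most, thus does not stand for all of them. Among the 6 lower, Ache averaged 275.5 ± 43.5 in overexpressed and 753 ± 85.6 in wildtype cells, and Chga 1971 ± 151 and 3357 ± 515 (SD, n = 3 each). The 2 higher were Dbh, the enzyme that makes noradrenaline, and the transcription factor Gata3. Dbh averaged 2319 ± 156 in overexpressed and 1531 ± 231 in wildtype cells. It was also above wildtype without overlap in knockdown cells (2413 ± 88.7). Gata3 read 363 to 393 on overexpressed and 105 to 298 on wildtype arrays. The 4 blood cell markers summed to 536 to 591 on overexpressed, 927 to 998 on knockdown and 1135 to 1202 on wildtype arrays. Cd74, their 1 member above the median brightness, was the 1 marker of the 4 without overlap between overexpressed and wildtype arrays. It averaged 373 ± 24.6 in overexpressed, 792 ± 104 in knockdown and 928 ± 60.9 in wildtype cells (SD, n = 3 each), so this sum mostly follows Cd74. The part of these shifts in the Manf and Sel1l results was not tested.

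Hspa5 binds unfolded chains in the lumen and holds the stress sensors inactive. Its brightest set, 1416064_a_at, read 8427, 8779 and 8741 on the overexpressed arrays A, B and C, 9216, 9182 and 10329 on the knockdown arrays and 7357, 8341 and 9155 on the wildtype arrays. Knockdown values were all above wildtype values by a small margin, and overexpressed values lay inside the wildtype range. The differences were 0.07 ± 0.10 in overexpressed over wildtype (interval -0.14 to 0.28, adjusted p = 0.772) and 0.21 ± 0.10 in knockdown over wildtype (adjusted p = 0.459).

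The second Hspa5 set, 1427464_s_at, of a type that can match several genes, read 2628, 2587 and 2594 on overexpressed, 2918, 2589.7 and 3006 on knockdown and 2316, 2334 and 2400 on wildtype arrays. Both altered groups were above wildtype without overlap. Neither difference passed: it was 0.15 ± 0.08 in overexpressed over wildtype (adjusted p = 0.312) and 0.27 ± 0.08 in knockdown over wildtype (interval 0.09 to 0.44, adjusted p = 0.272). The ending s_at marks this type. Among others, Canx 1415692_s_at, Sel1l 1425188_s_at, Tcof1 1423601_s_at and the brightest sets of Selenos and Sec62 carry it too.

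Hsp90b1, the Hsp90 chaperone of the compartment, read 2310.3, 2111 and 2091 on overexpressed, 2367, 2085 and 2520.2 on knockdown and 2158, 2283 and 2300.2 on wildtype arrays with its set 1438040_a_at. The groups overlapped throughout, with -0.05 ± 0.09 in overexpressed over wildtype (interval -0.25 to 0.15, adjusted p = 0.825) and 0.04 ± 0.09 in knockdown over wildtype (adjusted p = 0.900). Its other set, 1415889_a_at, gave 0.04 ± 0.13 and -0.06 ± 0.13 in these comparisons.

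Sdf2l1 takes part in chaperone complexes with Hspa5 and its cochaperones. It read 477, 637 and 496 on the overexpressed arrays A, B and C, 1005, 696 and 846 on the knockdown arrays and 508, 685 and 679 on the wildtype arrays. The knockdown values were above all 6 others, and overexpressed and wildtype values overlapped. Sdf2l1 was lower in overexpressed over knockdown (-0.64 ± 0.17, adjusted p = 0.0450), a call lost under 9 of 19 alternative settings. Against wildtype it gave -0.21 ± 0.17 in overexpressed (adjusted p = 0.543) and 0.43 ± 0.17 in knockdown cells (adjusted p = 0.392), neither of which passed.

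The brightest sets of the lectin chaperones were nearly level with wildtype in both altered groups, while some of their other sets differed more. Calr, the soluble lectin calreticulin, read 5422, 5036 and 4931 on overexpressed, 5632, 5051 and 5750.4 on knockdown and 5110.1, 5148 and 5309 on wildtype arrays with its brightest set 1417606_a_at. Its differences were -0.02 ± 0.08 in overexpressed over wildtype (interval -0.20 to 0.16, adjusted p = 0.944) and 0.08 ± 0.08 in knockdown over wildtype (adjusted p = 0.783). The other Calr sets gave 0.19 ± 0.13 and -0.05 ± 0.09 in overexpressed over wildtype, and 0.29 ± 0.13 and 0.11 ± 0.09 in knockdown over wildtype.

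Canx, the membrane lectin calnexin, read 4901, 4486 and 4542 on overexpressed, 5064, 4561 and 4557 on knockdown and 5171, 4927 and 4559 on wildtype arrays with its set 1415692_s_at. The difference was -0.07 ± 0.08 in overexpressed over wildtype (interval -0.26 to 0.11, adjusted p = 0.701) and -0.05 ± 0.08 in knockdown over wildtype (adjusted p = 0.887). Of its other sets, 1422845_at read 1836 to 1996 on overexpressed, 1308 to 2043 on knockdown and 1812 to 2202 on wildtype arrays, and its -0.33 ± 0.14 in knockdown over wildtype had an adjusted p of 0.441. Set 1428935_at gave -0.15 ± 0.15 in overexpressed over wildtype and 0.10 ± 0.15 in knockdown over wildtype. The intervals of the brightest sets of Calr, Canx and Hsp90b1 in overexpressed over wildtype held no change beyond 0.26 in size on the log2 scale. Those of other sets reached further, to 0.49 for Calr 1456170_x_at, -0.49 for Canx 1428935_at and 0.33 for Hsp90b1 1415889_a_at.

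Among the 3 disulfide isomerases Pdia3, Pdia4 and Pdia6, Pdia6, which acts on disulfides of client proteins and of the stress sensors, was the 1 gene with a call in any comparison. Its set 1423648_at read 1901, 1779 and 2502 on the overexpressed arrays A, B and C, 3103, 3077 and 3887 on the knockdown arrays and 2682, 2917 and 2861 on the wildtype arrays. The order was overexpressed, wildtype, knockdown from low to high, without overlap between any 2 groups. Overexpressed over knockdown was called (-0.71 ± 0.13, adjusted p = 0.0113). Overexpressed over wildtype gave -0.46 ± 0.13 with an interval of -0.76 to -0.17 and did not pass (adjusted p = 0.0533), although it passed under 6 of 19 alternative settings.

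Knockdown over wildtype gave 0.24 ± 0.13 for this set (adjusted p = 0.545). The Pdia6 call against knockdown was lost without the mean-variance trend (adjusted p = 0.0516) and without overexpressed array A (adjusted p = 0.0514). The dim set 1430983_at read 82.6 to 87.9 on overexpressed, 86.5 to 97.3 on knockdown and 72.2 to 90.5 on wildtype arrays, with 0.09 ± 0.21 in overexpressed over wildtype. With both sets averaged, overexpressed over wildtype was -0.19 ± 0.11 (adjusted p = 0.334).

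Pdia3, the isomerase that works with calnexin and calreticulin, read 5140, 5316 and 4948 on overexpressed, 4765, 3758 and 4503 on knockdown and 4106, 4579 and 4976 on wildtype arrays. Overexpressed values were above all knockdown values, and both groups overlapped with wildtype. The differences were 0.18 ± 0.11 in overexpressed over wildtype (interval -0.06 to 0.41, adjusted p = 0.375), -0.07 ± 0.11 in knockdown over wildtype (adjusted p = 0.857) and 0.25 ± 0.11 in overexpressed over knockdown (adjusted p = 0.193).

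Pdia4, an isomerase with several thioredoxin-like domains, read 562, 605 and 453 on overexpressed, 828, 438 and 555 on knockdown and 584, 574 and 591 on wildtype arrays with its set 1416497_at. Knockdown array A was the highest and knockdown array B the lowest of all 9, so the knockdown values enclosed all others. The difference was -0.12 ± 0.20 in overexpressed over wildtype (interval -0.56 to 0.32, adjusted p = 0.813) and 0.01 ± 0.20 in knockdown over wildtype (adjusted p = 0.992). The dim set 1450620_at gave -0.21 ± 0.31 and 0.28 ± 0.31 in these comparisons.

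In knockdown over wildtype none of the 21 probe sets was called by limma, where 0.0133% of all probe sets were called (3 of 22626, with 0.00442% higher and 0.00884% lower). At an unadjusted p under 0.05, 4 member sets were higher and 1 was lower, while 2462 of all probe sets (10.9%) passed that limit, 5.94% higher and 4.94% lower. The groups did not overlap for 5 higher and 0 lower member sets, against 8.63% and 7.01% of all probe sets. The 5 were both Hspa5 sets, Manf, Sdf2l1 and Pdia6 1423648_at. The median log2 fold change was 0.10 over the 21 sets and 0.03 over all probe sets.

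In overexpressed over knockdown, 0 member sets were called higher and 4 lower, where 7.57% of all probe sets were called, 3.43% higher and 4.14% lower. The 4 were Sdf2l1, Pdia6 1423648_at and the Sel1l sets 1425187_at and 1430692_a_at. Groups did not overlap for 2 higher and 9 lower sets, against 12.9% and 15.2% of all probe sets, and the median was -0.13 over the 21 sets and -0.05 over all. Of all calls in this comparison 45.3% were higher, and 57.5% with arrays set to a common median, under which 2 member sets were called lower. In knockdown over wildtype 33.3% of the 3 calls were higher, against 0% under either rescaling.

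Between arrays, the 10 genes' brightest sets had no single group level. The median of their log2 deviations from the wildtype mean was 0.02, -0.000808 and -0.10 on the overexpressed arrays A, B and C, 0.13, -0.07 and 0.16 on the knockdown arrays, and -0.06, 0.01 and 0.03 on the wildtype arrays. Knockdown array B was thus below the overexpressed arrays A and B, and the other two knockdown arrays were the highest of the 9. Over the 9 arrays, 34 of the 45 pairs of member genes had a positive Pearson correlation, with a median of 0.22. Pairs of other genes were not counted, so this share cannot be read as particular to the members. Hsp90b1 and Calr were the most alike (r = 0.94), followed by Pdia6 and Sel1l (0.74) and Hspa5 and Sdf2l1 (0.67), and Manf and Sel1l were the most opposed (-0.77).

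The genes most like the mean pattern of the 10 members were Erp44 (r = 0.911), Uqcrfs1 (0.905), Stx6 (0.895), 1110038F14Rik (0.885) and Pgam1 (0.864), by the same measure over the same arrays. Erp44, which retains client proteins in the early secretory pathway, read 668, 608 and 606 on overexpressed, 795, 693 and 769.9 on knockdown and 640, 702 and 709 on wildtype arrays. Its knockdown values were above its overexpressed values, and it overlapped between either altered group and wildtype.

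Other genes of the compartment were read from 7 lists with 112 entries, older synonyms included, of which 97 genes were measured. Each gene is given by its brightest probe set. In overexpressed over wildtype 4 of the 97 were called higher and 7 lower, where 11.2% of all 12393 genes were called, 5.04% higher and 6.21% lower. In knockdown over wildtype 0 of the 97 passed by limma, against 0.00807% of all genes, with 19 higher and 5 lower at an unadjusted p under 0.05, which 6.84% of all genes passed upward and 4.95% downward. In overexpressed over knockdown 3 were called higher and 8 lower, against 8.81% of all genes, 3.56% higher and 5.25% lower.

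**Figure D5:**
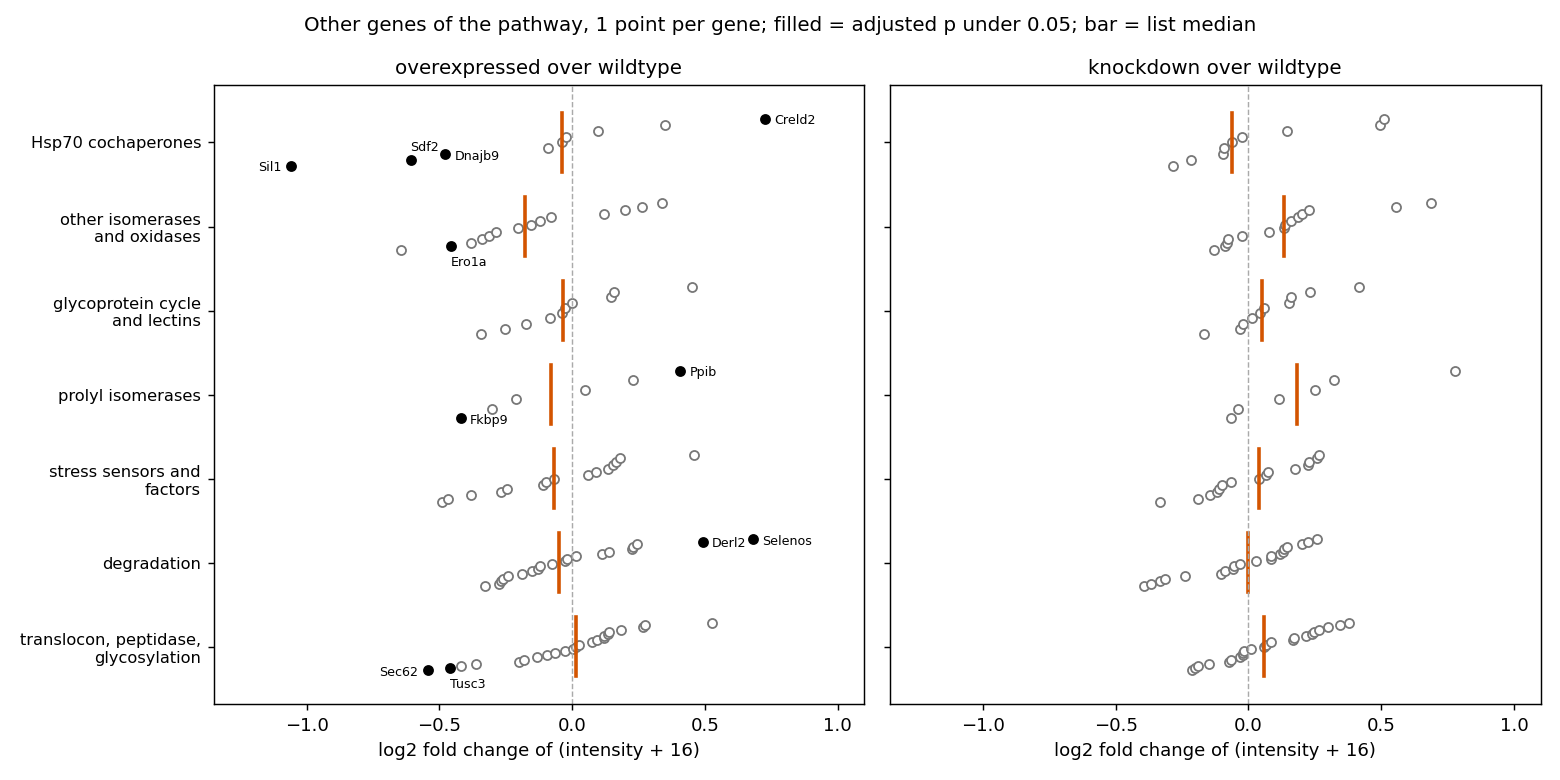
Log2 fold change of (intensity + 16) of the 97 other genes of the compartment (1 point per gene, x axis) by list (y axis), in overexpressed over wildtype at left and knockdown over wildtype at right, with filled points for an adjusted p under 0.05 and a bar at each list's median. The 11 filled points all stand at left, 7 below 0 and 4 above.

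Of the 9 measured genes on the list of Hspa5 cochaperones and related proteins of the compartment, 1 was called higher and 3 lower in overexpressed over wildtype, with a median of -0.04. Sil1, a nucleotide exchange factor of Hspa5, fell by 1.06 ± 0.20 on the log2 scale (adjusted p = 0.00818). It read 171, 191 and 207 on overexpressed, 315, 370.4 and 374 on knockdown and 534, 438 and 298 on wildtype arrays. Sdf2, the close relative of Sdf2l1, was also lower (-0.61 ± 0.11, adjusted p = 0.00720), as was Dnajb9, a J-domain cochaperone (-0.48 ± 0.12, adjusted p = 0.0355). Creld2, a stress-induced protein of the compartment, was higher (0.73 ± 0.20, adjusted p = 0.0408). In overexpressed over knockdown, Sil1 was the 1 call of this list (-0.84 ± 0.20, adjusted p = 0.0284).

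Of 14 other disulfide isomerases and oxidases, 0 were called higher and 1 lower in overexpressed over wildtype, with a median of -0.18. The call was Ero1a, the oxidase that reoxidises the isomerases. It read 1549.8, 1554 and 1479.6 on overexpressed, 3005, 2889 and 3407 on knockdown and 1949.8, 2139 and 2221 on wildtype arrays, so that the order from low to high was overexpressed, wildtype, knockdown without overlap, as for Pdia6. Its differences were -0.46 ± 0.09 in overexpressed over wildtype (adjusted p = 0.00960), 0.55 ± 0.09 in knockdown over wildtype (adjusted p = 0.0701) and -1.01 ± 0.09 in overexpressed over knockdown (adjusted p = 0.000229). The other two Ero1a probe sets were called in overexpressed over knockdown and not in overexpressed over wildtype.

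Selenof, a selenoprotein partner of the glucosyltransferase that checks glycoprotein folding, gave -0.31 ± 0.09, adjusted p = 0.0501 in overexpressed over wildtype. Pdia5 gave -0.64 ± 0.19, adjusted p = 0.0543 and P4hb, the classical disulfide isomerase, -0.20 ± 0.08, adjusted p = 0.153. In overexpressed over knockdown, Pdia5 (-0.83 ± 0.19, adjusted p = 0.0232) and P4hb (-0.43 ± 0.08, adjusted p = 0.0108) were lower and, with Ero1a, made up the 3 calls of this list.

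None of the 10 genes of the glycoprotein folding cycle and cargo lectins was called in any of the 3 comparisons by limma, and their median in overexpressed over wildtype was -0.03. The smallest p there was that of Mogs, the first glucosidase to trim new glycans (0.45 ± 0.14, adjusted p = 0.0667). It was followed by Prkcsh, the regulatory subunit of the second glucosidase (-0.25 ± 0.11, adjusted p = 0.206), the cargo lectin Lman1 (-0.17 ± 0.10, adjusted p = 0.329) and Clgn, a relative of calnexin (-0.34 ± 0.21, adjusted p = 0.381).

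Of 6 prolyl isomerases, 1 was called higher and 1 lower in overexpressed over wildtype, with a median of -0.08. Ppib, a cyclophilin, was higher (0.41 ± 0.10, adjusted p = 0.0293) and Fkbp9 lower (-0.42 ± 0.09, adjusted p = 0.0159). The other probe set of each had the same sign but was not called in this comparison. Fkbp2 gave 0.23 ± 0.09, adjusted p = 0.141 and Fkbp7 -0.30 ± 0.12, adjusted p = 0.165. Fkbp9 was also the 1 call in overexpressed over knockdown (-0.36 ± 0.09, adjusted p = 0.0389).

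The sensors and transcription factors of the unfolded protein response, 15 genes, had 0 calls in overexpressed over wildtype by limma and a median of -0.07. Wfs1, a membrane protein that restrains the response, gave -0.38 ± 0.13, adjusted p = 0.0873, and the sensor Atf6 -0.47 ± 0.17, adjusted p = 0.116. Atf6b, the relative of Atf6, gave 0.46 ± 0.18, adjusted p = 0.153, and Ddit3, a transcription factor of prolonged stress, -0.49 ± 0.20, adjusted p = 0.168. In overexpressed over knockdown Atf6b was higher (0.79 ± 0.18, adjusted p = 0.0253), the 1 call of this list.

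Of 20 genes of degradation from the compartment, 2 were called higher and 0 lower in overexpressed over wildtype, with a median of -0.05. The calls were Selenos, a selenoprotein that links the degradation channel to the Vcp segregase (0.68 ± 0.12, adjusted p = 0.00656), and Derl2, a channel protein (0.49 ± 0.11, adjusted p = 0.0212). Of the other probe sets of these genes, 1 of 2 was called higher for Selenos and 0 of 1 for Derl2. Derl1 gave -0.28 ± 0.11, adjusted p = 0.140 and Ubxn4, a Vcp cofactor, -0.19 ± 0.08, adjusted p = 0.164. Selenos (0.55 ± 0.12, adjusted p = 0.0236) and the Vcp cofactor Nploc4 (0.45 ± 0.11, adjusted p = 0.0276) were higher in overexpressed over knockdown. Sel1l, which acts in the same complex, is the 1 member gene whose brightest set was called lower in overexpressed over wildtype.

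Of 23 genes of the translocon, signal peptidase and oligosaccharyltransferase, 0 were called higher and 2 lower in overexpressed over wildtype, with a median of 0.02. Sec62, a subunit of the translocon's posttranslational branch, was lower (-0.54 ± 0.09, adjusted p = 0.00561), as was Tusc3, a subunit of the oligosaccharyltransferase (-0.46 ± 0.08, adjusted p = 0.00669). Of the 3 other Sec62 probe sets, 1 was called lower as well. Ssr4 gave -0.42 ± 0.12, adjusted p = 0.0570 and Spcs3, a signal peptidase subunit, 0.53 ± 0.17, adjusted p = 0.0736. The 3 lower calls of this list in overexpressed over knockdown were Tusc3 (-0.54 ± 0.08, adjusted p = 0.00429), Magt1 (-0.36 ± 0.09, adjusted p = 0.0327) and Ostc (-0.36 ± 0.08, adjusted p = 0.0233). The sign of the list medians in overexpressed over wildtype depended on the setting for 6 of the 7 lists, the list of other disulfide isomerases and oxidases being the exception. Depending on the setting, the higher calls there could fall to 0 for the cochaperones and the prolyl isomerases. The lower calls could do so for the prolyl isomerases, the other disulfide isomerases and oxidases, and the translocon list.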

How the data were processed

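RNA of 9 arrays was measured, 3 in each of the overexpressed, knockdown and wildtype groups, taken from the sample titles. The authors deposited linear intensity values, 1 per probe set and array. Neither the labels nor the table name the software, the background correction or the scaling. The mean of each array without its top and bottom 2% of values lay between 496.284 and 496.833, so the deposited arrays already shared a common level. The highest array median (185.95) was 1.13 times the lowest (164.1), under the limit of 1.2 set for rescaling, and values were used as deposited. Arrays correlated at 0.972 to 0.978 inside a group and at 0.956 to 0.978 across groups (log2 values). The number of arrays limits the precision, and the table held no detection calls.

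Of 22690 probe sets, 64 controls were left out. The platform annotation gave exactly 1 symbol to 20380 of the other 22626, several symbols to 691 and no symbol to 1555. Values were converted to log2(intensity + 16), which understates changes of dim probe sets, and fitted with limma 3.58.1 in R 4.3.3 (lmFit, eBayes with a trend) on all 9 arrays with 1 mean per group. Benjamini-Hochberg adjustment ran over 22626 probe sets within each comparison. The fit was tested on simulated data.

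Where a gene had several probe sets, the brightest stood for it. Named were all 10 members, Tcof1, up to 4 genes per list with the smallest p in overexpressed over wildtype, and the 5 genes most correlated with Manf and with the members' mean. Nploc4, Magt1 and Ostc were named after their values were seen, as calls in overexpressed over knockdown. The members and the lists were chosen with earlier results of these data known. Alternatives were pseudocounts of 1 and 64, only the brighter 60% of probe sets, quantile normalization, a common array median, no trend, array weights, the letter as a block, 2 groups at a time, a 1.5-fold limit, the mean over a gene's probe sets, and leaving out each array. Promoter sequences came from RefSeq (GRCm38.p6).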

Additional observations from a re-analysis of the deposited data

How the results depend on the processing

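The calls against wildtype of Manf (0.96 to 1.37 on the log2 scale) and of Sel1l 1425187_at (-0.80 to -0.69) and 1430692_a_at held under all 19 alternatives. Over the member values recomputed under these alternatives, 1144 kept direction and side of the threshold, 18 no longer passed, 8 newly passed and 21 turned sign. The values that turned sign were small and not called with the settings of the report, and the cause was not tested. With quantile normalization Pdia6 1430983_at in overexpressed over knockdown was 0.000257. With a common array median Calr 1417606_a_at was 0.0105 in overexpressed over wildtype, Pdia4 1416497_at was -0.0262 in knockdown over wildtype and Canx 1415692_s_at was 0.0373 in overexpressed over knockdown.

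Leaving out 1 array at a time, overexpressed over wildtype ranged over -0.11 to 0.14 for Hsp90b1 1415889_a_at, -0.0580 to 0.0102 for Calr 1417606_a_at, -0.11 to 0.0238 for Calr 1433806_x_at and -0.0151 to 0.14 for Hspa5 1416064_a_at. Knockdown over wildtype ranged over -0.13 to 0.0372 for Hsp90b1 1415889_a_at, -0.0156 to 0.12 for Hsp90b1 1438040_a_at, -0.24 to 0.21 for Pdia4 1416497_at, -0.22 to 0.0671 for Sel1l 1453559_a_at, -0.0250 to 0.19 for Sel1l 1425188_s_at and -0.14 to 0.0290 for Pdia3. Overexpressed over knockdown ranged over -0.0459 to 0.19 for Hsp90b1 1415889_a_at, -0.33 to 0.12 for Pdia4 1416497_at and -0.0647 to 0.0251 for Canx 1415692_s_at.

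Counts over all probe sets moved more. In overexpressed over wildtype 2169 were called, 1339 without the trend and 1090 to 2404 with 1 array left out. In knockdown over wildtype 3 were called, against 46 with the brighter 60%, 1 with quantile normalization, without the trend or with the 2 groups alone, 24 with array weights, 0 with the replicate block, and 0 to 103 with 1 array left out, the 103 being without wildtype array C. In overexpressed over knockdown 1713 were called, 834 without the trend, 1114 with the 1.5-fold limit and 704 to 2048 with 1 array left out, the 704 being without overexpressed array A. Member sets called higher in knockdown over wildtype were 0, and 1 (Manf) with the brighter 60%, with a leave-out range of 0 to 1. Member sets called lower in overexpressed over knockdown were 4, against 2 with a common median and 1 without the trend, with a leave-out range of 1 to 4.

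The labels do not say if the letters pair the arrays, and the values did not settle it. The 9 correlations between same-lettered arrays' deviations were small, from -0.01 to 0.10, and 1 was over 0.1. Still, 7 of 9 arrays were most like one of their own letter, although most candidates carried another letter. With the letter as a replicate block, Pdia6 1423648_at passed in overexpressed over wildtype (adjusted p = 0.0266) and Sdf2l1 no longer passed in overexpressed over knockdown (adjusted p = 0.0721).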
